A study of Sus scrofa with 4 samples.

Results

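The genes described are 9 genes of blood clotting and its control in the kidneys of genetically modified pigs, selected by symbol from the 26466 gene symbols of the count files: the anticoagulant genes PROC, SERPINC1, PROS1, TFPI and TFPI2, the clotting genes F3 and F5, and the plasminogen activator genes PLAT and PLAU. RNA sequencing of kidney gave 4 libraries, 1 in each of 4 groups. Transplanted kidneys had been placed in non-human primates. Kidneys of GalT-/-;hCD39;hCD46;hCD55;TBM pigs, called CD39/CD46/CD55/TBM here, were taken 6 weeks after transplantation (a transplanted kidney is called a graft) or untransplanted. Kidneys of GalT-/-;hCD39;hCD55 pigs, called CD39/CD55, were taken 4 weeks after transplantation or untransplanted. All 4 groups lacked GalT, the galactosyltransferase that makes the alpha-Gal sugar, and carried human CD39 and human CD55. Human CD46 and thrombomodulin (TBM), whose species the labels do not give, were added in 1 genotype. The series was set up to choose the genotype that better eases immune rejection, and the added thrombomodulin acts in the pathway described here. Genotype, weeks after transplantation and recipient cannot be told apart between the grafts. The promoters of the transgenes, the number of animals behind a library and whether a graft and an untransplanted kidney came from 1 pig are not stated in the labels.

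Clotting starts when tissue factor, encoded by F3, meets factor VII of plasma, and factor V speeds the step that makes thrombin, the enzyme that turns fibrinogen into fibrin. It is held back by antithrombin (SERPINC1), by tissue factor pathway inhibitor (TFPI), and by activated protein C (PROC), which cuts factor V with protein S (PROS1) as cofactor. Thrombin bound to thrombomodulin on the endothelium activates protein C, and the receptor PROCR assists. Fibrin is dissolved by plasmin, which is released from plasminogen by tissue plasminogen activator (PLAT) and urokinase (PLAU). Many of these plasma proteins are made mostly in liver, whereas urokinase is also a product of kidney tubules. Clotting in graft vessels is a known obstacle in pig-to-primate transplantation.

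Total counts ranged from 10346863 in the CD39/CD46/CD55/TBM graft to 14092905 in the CD39/CD55 untransplanted kidney, and the 9 genes together held 2141 counts in the CD39/CD46/CD55/TBM graft, 1807 in the CD39/CD55 graft, 3439 in the CD39/CD46/CD55/TBM untransplanted kidney and 4056 in the CD39/CD55 untransplanted kidney. Among kidney markers, LRP2 of the proximal tubule and UMOD of the thick ascending limb were present in every library. LRP2 had 831 and 2622 counts in the CD39/CD46/CD55/TBM and CD39/CD55 grafts, against 20999 and 23515 in the CD39/CD46/CD55/TBM and CD39/CD55 untransplanted kidneys. UMOD had 2214 and 6945 in those grafts against 15092 and 45070. Not all kidney markers were present, with AQP3 of the collecting duct at 0 and 1 in those grafts and 0 in both untransplanted kidneys. Mitochondrially encoded genes took 12.6% of counts in the CD39/CD46/CD55/TBM graft and 4.23% in the CD39/CD55 graft, against 15% and 10.6% in the CD39/CD46/CD55/TBM and CD39/CD55 untransplanted kidneys. Ribosomal RNA genes took 13.7% and 15.2% in the CD39/CD46/CD55/TBM and CD39/CD55 grafts, against 9.32% and 8.01% in the CD39/CD46/CD55/TBM and CD39/CD55 untransplanted kidneys. The calls of the 9 genes in the test of state were the same without ribosomal RNA and mitochondrial genes, and the part of RNA quality in them was not tested. Levels are given as scaled CPM, depth-normalised counts after edgeR's TMM scaling of library sizes, on which a floor of 3 counts lay between 0.219 and 0.29. In all 1650 pairs of genes in which 1 RefSeq span lies inside another and the inner gene had a count, the inner count was not above the outer one in any library. Counting a read for every gene span it falls in, introns included and strand ignored, would give this pattern, so reads of overlapping genes cannot be told apart. No RefSeq gene overlaps PROC, PROS1, F3 or PLAT, and the other 5 overlap at least 1. In bulk kidney, fewer cells of a type and less RNA per cell cannot be told apart. All 9 genes passed the filter of 10 counts in at least 1 library, TFPI through the untransplanted kidneys alone.

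Protein C and antithrombin transcripts were low in both grafts, while those of protein S were not. In edgeR's quasi-likelihood test of 2 grafts against 2 untransplanted kidneys, PROC and SERPINC1 fell and PLAU rose, so 2 of the 9 genes fell against 2.71% of the 18168 genes tested, and 1 rose against 1.24% (3.95% in either direction). The other 6 did not pass an adjusted p of 0.05. The median log2 fold change was -0.70 over the 9 genes and 0.03 over all genes. The 9 genes were chosen with earlier results of these data known, so the shares describe them and are no test.

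PROC (chromosome 15, 25043543 to 25054310, Sscrofa11.1) had 14 counts in the CD39/CD46/CD55/TBM graft and 24 in the CD39/CD55 graft, against 380 in the CD39/CD46/CD55/TBM untransplanted kidney and 822 in the CD39/CD55 untransplanted kidney. Both grafts thus lay far below both untransplanted kidneys, at 1.65 ± 0.415 scaled CPM in grafts and 45.0 ± 21.1 in untransplanted kidneys (SD, n = 2 libraries each). The log2 fold change was -4.73 (SE 0.54, edgeR adjusted p = 0.00107), a 26.5-fold lower level in grafts and the change with rank 56 from the lowest among the 18168. The SE is the fold change divided by the root of the test's F and restates the test. Adjusted p ranged from 2.52e-14 to 0.00313 over 10 alternatives. Within genotypes, the log2 ratio of graft to untransplanted kidney was -4.42 in CD39/CD46/CD55/TBM (95% counting interval -5.36 to -3.71) and -4.92 in CD39/CD55 (-5.60 to -4.36). These intervals overlap, and they cover counting error between 2 libraries, not the spread between animals.

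SERPINC1 (chromosome 9, 116181988 to 116193100), which encodes the main plasma inhibitor of thrombin and factor Xa, had 10 counts in the CD39/CD46/CD55/TBM graft and 9 in the CD39/CD55 graft, against 134 in the CD39/CD46/CD55/TBM untransplanted kidney and 164 in the CD39/CD55 untransplanted kidney. The genotypes were close to each other in each state, at 0.847 ± 0.169 scaled CPM in grafts and 11.3 ± 0.959 in untransplanted kidneys (SD, n = 2 each). It fell by 3.68 on the log2 scale (SE 0.55, edgeR adjusted p = 0.00441), with adjusted p between 1.05e-06 and 0.0137 over 10 alternatives. The log2 ratios within genotypes were -3.39 in CD39/CD46/CD55/TBM (interval -4.55 to -2.53) and -3.96 in CD39/CD55 (-5.19 to -3.08). The lncRNA LOC110255512 shares 5982 of the 11113 bases of SERPINC1, and its own counts, 141 and 222 in the CD39/CD46/CD55/TBM and CD39/CD55 grafts and 135 and 144 in the CD39/CD46/CD55/TBM and CD39/CD55 untransplanted kidneys, gave a log2 fold change of 0.58 (edgeR adjusted p = 0.484). Reads in the shared stretch cannot be assigned to either gene.

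**Figure D1:**
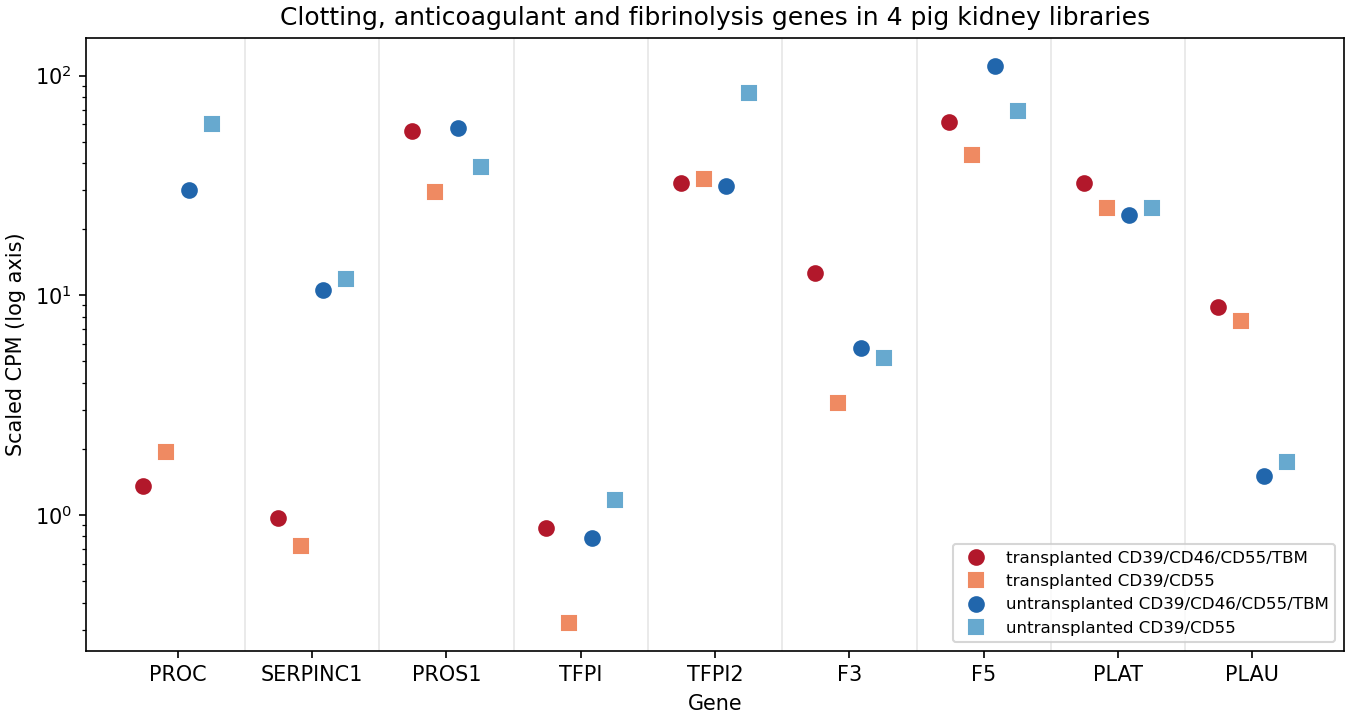
Scaled CPM (log axis) of the 9 genes in each of the 4 libraries, 1 point per library, with transplanted kidneys in red and orange and untransplanted kidneys in blue. For PROC and SERPINC1 both grafts lie more than 10 times below both untransplanted kidneys, for PLAU both lie above, and for F3 the grafts lie on either side of the untransplanted kidneys.

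Markers of the proximal tubule and of macrophages were mostly lower in the grafts as well, while liver-type markers were mixed. Of 11 proximal tubule markers tested 9 fell and none rose, and their summed level was 3111 and 5976 scaled CPM in the CD39/CD46/CD55/TBM and CD39/CD55 grafts, against 13222 and 11796 in the CD39/CD46/CD55/TBM and CD39/CD55 untransplanted kidneys. SLC22A6 was at 0 in the CD39/CD46/CD55/TBM graft. Of 10 macrophage and monocyte markers tested 5 fell and none rose, their summed level was 21.9 and 14.3 in those grafts against 79.4 and 84.5 in those untransplanted kidneys, and C1QC was at 0 in both grafts. The log2 fold change was below 0 for 9 of these 10 markers and above 0 for 1, the monocyte marker CD14. CD14 was at 3.96 and 3.88 in those grafts against 0.948 and 1.53 in those untransplanted kidneys (log2 fold change 1.63, edgeR adjusted p = 0.165). Of 9 liver-type markers tested 2, TTR and TF, fell and none rose, with sums of 61.0 and 145 in the grafts against 217 and 292 in the untransplanted kidneys, in the same order of genotypes. The lower sums follow TF, at 15.9 and 58.2 in those grafts against 157 and 240 in those untransplanted kidneys. The log2 fold change was below 0 for 7 of these markers and above 0 for 2. HPX was one of the 2, at 9.28 and 54.6 against 6.48 and 7.14 (log2 fold change 2.23, edgeR adjusted p = 0.0805). ALB, the defining liver transcript, had 2 and 5 counts in the CD39/CD46/CD55/TBM and CD39/CD55 grafts and 5 and 3 in the CD39/CD46/CD55/TBM and CD39/CD55 untransplanted kidneys and was thus near 0 in all 4. The part of tubule and macrophage content in the fall of PROC and SERPINC1 was not tested.

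PROS1 (chromosome 13, 165915298 to 165999118), protein S, had 578 counts in the CD39/CD46/CD55/TBM graft and 365 in the CD39/CD55 graft, against 728 in the CD39/CD46/CD55/TBM untransplanted kidney and 526 in the CD39/CD55 untransplanted kidney. On the scaled CPM the groups overlap, and the order follows genotype: 55.9 and 57.5 in CD39/CD46/CD55/TBM, graft and untransplanted, and 29.5 and 38.3 in CD39/CD55. The log2 fold change of grafts over untransplanted kidneys was -0.17 (SE 0.44, edgeR adjusted p = 0.863), and its sign turned when the CD39/CD55 graft (0.23) or the CD39/CD46/CD55/TBM untransplanted kidney (0.15) was left out. Within genotypes the ratio was -0.04 in CD39/CD46/CD55/TBM (interval -0.20 to 0.12) and -0.38 in CD39/CD55 (-0.57 to -0.18).

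The receptors that activate protein C were not among the genes past the test, and whether transgene reads count toward THBD is not stated. THBD, the pig's own thrombomodulin gene, had 65 counts in the CD39/CD46/CD55/TBM graft and 16 in the CD39/CD55 graft, against 102 in the CD39/CD46/CD55/TBM untransplanted kidney and 200 in the CD39/CD55 untransplanted kidney. Both grafts were below both untransplanted kidneys, with a log2 fold change of -1.58 (SE 0.65, edgeR adjusted p = 0.202). The ratio of graft to untransplanted kidney was -0.36 in CD39/CD46/CD55/TBM (interval -0.83 to 0.10) and -3.45 in CD39/CD55 (-4.33 to -2.76). PROCR, the endothelial protein C receptor, had 8 and 5 counts in the CD39/CD46/CD55/TBM and CD39/CD55 grafts and 10 and 1 in the CD39/CD46/CD55/TBM and CD39/CD55 untransplanted kidneys, too few to show a change. Of 14 endothelial markers tested 1, TEK, fell and none rose, and their sum was 215 and 250 scaled CPM in the CD39/CD46/CD55/TBM and CD39/CD55 grafts against 341 and 399 in the CD39/CD46/CD55/TBM and CD39/CD55 untransplanted kidneys. The part of endothelial content in the THBD values was not tested.

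The inhibitors of the tissue factor pathway differed in depth and pattern. TFPI (chromosome 15, 92345083 to 92409962) had 9 counts in the CD39/CD46/CD55/TBM graft and 4 in the CD39/CD55 graft, against 10 in the CD39/CD46/CD55/TBM untransplanted kidney and 16 in the CD39/CD55 untransplanted kidney. Its log2 fold change was -0.70 (SE 0.90, edgeR adjusted p = 0.705), so it did not pass. Within genotypes the log2 ratio was 0.15 in CD39/CD46/CD55/TBM (interval -1.34 to 1.59) and -1.72 in CD39/CD55 (-3.89 to -0.22). All of its span lies inside the lncRNA LOC106506297, which had 46 to 57 counts.

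TFPI2 (chromosome 9, 73684236 to 73694663), a related Kunitz-type inhibitor that acts on plasmin and other serine proteases and is secreted into the matrix, had 335 counts in the CD39/CD46/CD55/TBM graft and 418 in the CD39/CD55 graft, against 398 in the CD39/CD46/CD55/TBM untransplanted kidney and 1142 in the CD39/CD55 untransplanted kidney. The untransplanted CD39/CD55 kidney stood alone at 83.2 scaled CPM, and the other 3 libraries lay between 31.5 and 33.8. The test of state gave a log2 fold change of -0.79 (SE 0.48, edgeR adjusted p = 0.383), which was 0.07 without that library and -1.33 without the CD39/CD46/CD55/TBM untransplanted kidney. Graft over untransplanted kidney was 0.04 in CD39/CD46/CD55/TBM (interval -0.17 to 0.25) and -1.30 in CD39/CD55 (-1.47 to -1.14). TFPI2 lies inside the span of GNGT1, a transducin subunit gene, which had 451 and 463 counts in the CD39/CD46/CD55/TBM and CD39/CD55 grafts and 448 and 1211 in the CD39/CD46/CD55/TBM and CD39/CD55 untransplanted kidneys. GNGT1 exceeded TFPI2 by only 45 to 116 counts, and the same library was the high one for both.

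F3 and F5 sit at the start and in the middle of the cascade. F3 (chromosome 4, 122827018 to 122837673), tissue factor, had 130 counts in the CD39/CD46/CD55/TBM graft and 40 in the CD39/CD55 graft, against 73 in the CD39/CD46/CD55/TBM untransplanted kidney and 71 in the CD39/CD55 untransplanted kidney. The untransplanted kidneys were alike, at 5.77 and 5.17 scaled CPM in CD39/CD46/CD55/TBM and CD39/CD55, and the grafts lay on opposite sides of them, at 12.6 and 3.23. The test over both genotypes gave a log2 fold change of 0.52 (SE 0.60, edgeR adjusted p = 0.668), which became -0.75 without the CD39/CD46/CD55/TBM graft and 1.20 without the CD39/CD55 graft. Within CD39/CD46/CD55/TBM the log2 ratio was 1.12 (interval 0.70 to 1.56), and within CD39/CD55 it was -0.67 (-1.27 to -0.10).

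F5 (chromosome 4, 81403273 to 81484908), the cofactor of thrombin formation, had 639 counts in the CD39/CD46/CD55/TBM graft and 541 in the CD39/CD55 graft, against 1405 in the CD39/CD46/CD55/TBM untransplanted kidney and 949 in the CD39/CD55 untransplanted kidney. Both grafts were below both untransplanted kidneys on the scaled CPM (52.7 ± 12.8 in grafts and 90.1 ± 29.6 in untransplanted kidneys, SD, n = 2 each), with a log2 fold change of -0.77 (SE 0.43, edgeR adjusted p = 0.343). The ratios were -0.85 in CD39/CD46/CD55/TBM (interval -0.98 to -0.71) and -0.66 in CD39/CD55 (-0.82 to -0.51), both under 2-fold. The lncRNA LOC110260298, 5371 bases inside the 81636 bases of F5, held 553 and 393 counts in the CD39/CD46/CD55/TBM and CD39/CD55 grafts and 1116 and 799 in the CD39/CD46/CD55/TBM and CD39/CD55 untransplanted kidneys. F5 exceeded it by 86 and 148 counts in the grafts of those genotypes and 289 and 150 in the untransplanted kidneys of those genotypes. With the lncRNA's counts taken off, an alternative chosen after seeing the data, the log2 fold change was -0.73 (edgeR adjusted p = 0.428). In CD39/CD55 the remaining counts were nearly equal, 148 in the graft and 150 in the untransplanted kidney. The lower value thus came from CD39/CD46/CD55/TBM, at 86 in the graft against 289 in the untransplanted kidney.

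**Figure D2:**
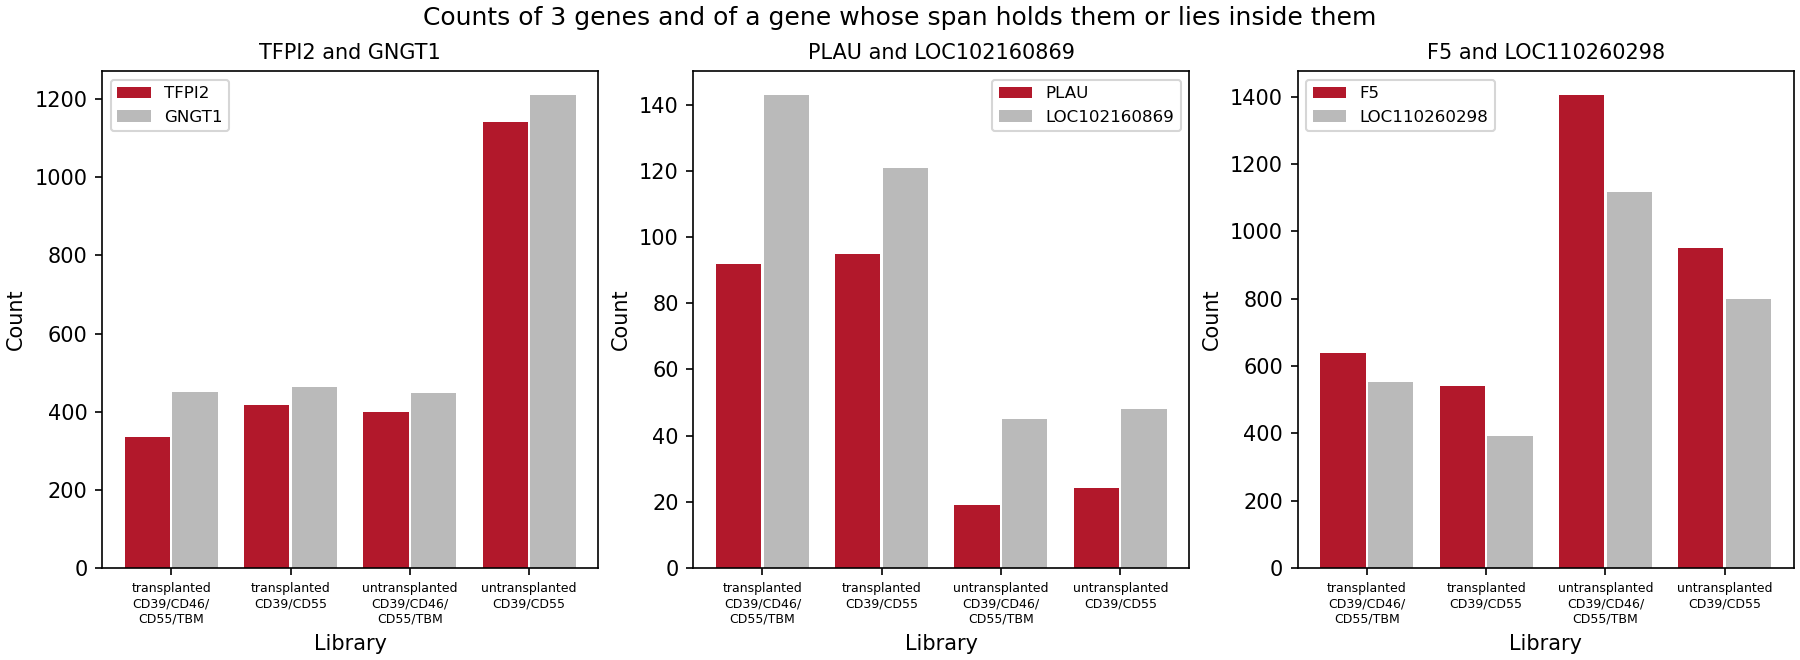
Counts (bars from 0) in the 4 libraries of TFPI2, PLAU and F5 in red and, in grey, of GNGT1 and LOC102160869, whose spans hold TFPI2 and PLAU, and of LOC110260298, which lies inside F5. In every library GNGT1 lies above TFPI2 by 45 to 116 counts and F5 above LOC110260298 by 86 to 289.

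The plasminogen activators parted. PLAU (chromosome 14, 76629313 to 76635173), urokinase, had 92 counts in the CD39/CD46/CD55/TBM graft and 95 in the CD39/CD55 graft, against 19 in the CD39/CD46/CD55/TBM untransplanted kidney and 24 in the CD39/CD55 untransplanted kidney. Both grafts were well above both untransplanted kidneys, at 8.28 ± 0.859 scaled CPM in grafts and 1.63 ± 0.174 in untransplanted kidneys (SD, n = 2 each). It rose by 2.32 on the log2 scale (SE 0.53, edgeR adjusted p = 0.0283), 4.99-fold. The call was lost without the CD39/CD46/CD55/TBM untransplanted kidney (adjusted p = 0.0826) and without the CD39/CD55 untransplanted kidney (0.0687), with log2 fold changes of 2.22 and 2.43, and adjusted p ranged from 0.00161 to 0.0826 over 10 alternatives. The ratios were 2.54 in CD39/CD46/CD55/TBM (interval 1.84 to 3.36) and 2.11 in CD39/CD55 (1.48 to 2.85).

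PLAU lies inside LOC102160869, a protein-coding locus with 143 and 121 counts in the CD39/CD46/CD55/TBM and CD39/CD55 grafts and 45 and 48 in the CD39/CD46/CD55/TBM and CD39/CD55 untransplanted kidneys. It exceeded PLAU by 51 and 26 counts in those grafts and 26 and 24 in those untransplanted kidneys. CAMK2G, a kinase gene that shares 3069 bases with PLAU, had 206 and 245 counts in those grafts against 619 and 949 in those untransplanted kidneys (log2 fold change -1.57, edgeR adjusted p = 0.0526).

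PLAT (chromosome 17, 11195599 to 11223821), tissue plasminogen activator, had 334 counts in the CD39/CD46/CD55/TBM graft and 311 in the CD39/CD55 graft, against 292 in the CD39/CD46/CD55/TBM untransplanted kidney and 342 in the CD39/CD55 untransplanted kidney. Its level was similar across the 4 libraries, from 23.1 to 32.3 scaled CPM, with a log2 fold change of 0.26 (SE 0.40, edgeR adjusted p = 0.761). The ratios were 0.48 in CD39/CD46/CD55/TBM (interval 0.25 to 0.72) and 0.01 in CD39/CD55 (-0.21 to 0.24).

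PLAUR, the cell-surface receptor of urokinase, was taken whatever its values. PLAUR had 129 counts in the CD39/CD46/CD55/TBM graft and 53 in the CD39/CD55 graft, against 32 in the CD39/CD46/CD55/TBM untransplanted kidney and 33 in the CD39/CD55 untransplanted kidney, with a log2 fold change of 1.74 (SE 0.59, edgeR adjusted p = 0.122). The CD39/CD46/CD55/TBM graft was the highest library, and the other 3 lay between 32 and 53 counts.

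**Figure D3:**
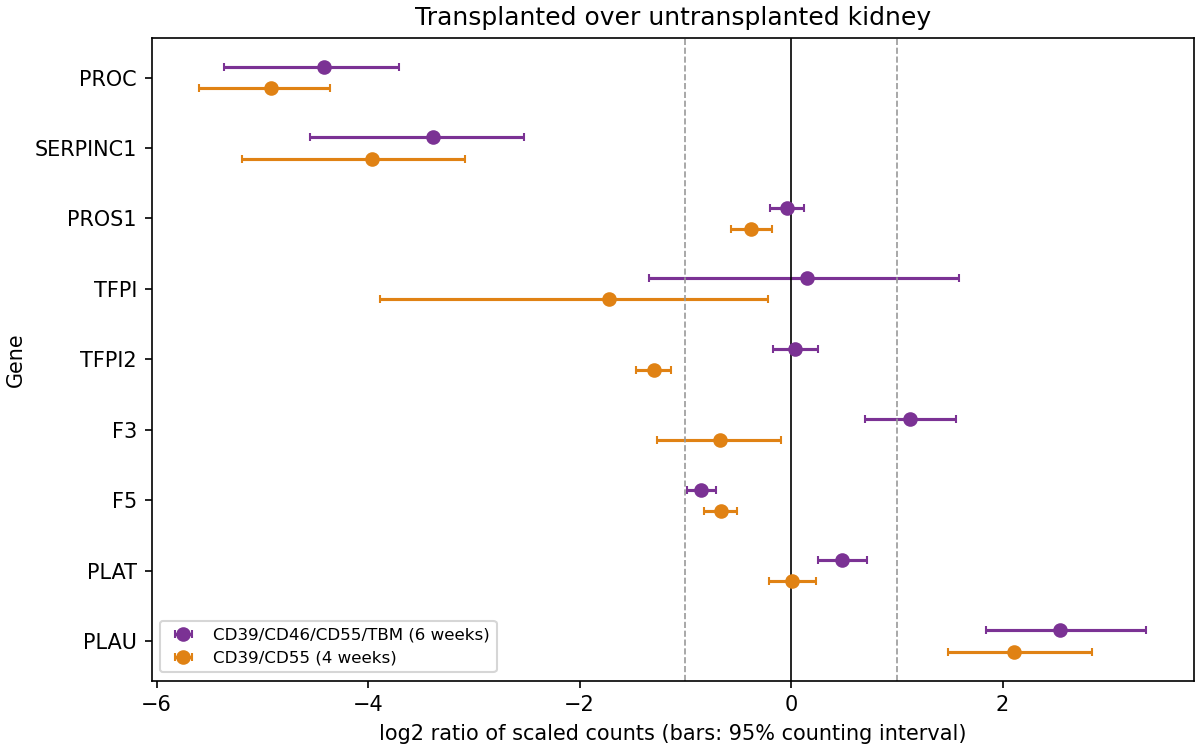
Log2 ratio of scaled counts, transplanted over untransplanted kidney, for each gene in CD39/CD46/CD55/TBM (purple) and CD39/CD55 (orange), with 95% counting intervals as bars and dashed lines at 2-fold. PROC and SERPINC1 are far to the left and PLAU to the right in both genotypes, and the F3 intervals lie on opposite sides of 0.

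Between single libraries a gene was called when it differed at least 2-fold and the counting interval excluded no change. In CD39/CD46/CD55/TBM 2 of the 9 genes, F3 and PLAU, were called higher in the graft, against 15.9% of all genes, and 2, PROC and SERPINC1, lower, against 16.3% (32.2% in either direction). In CD39/CD55, PLAU alone was called higher, against 13.2%, and 4, PROC, SERPINC1, TFPI and TFPI2, lower, against 13.7% (26.9% in either direction). The TFPI call rests on 4 counts in the graft and 16 in the untransplanted kidney.

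The other genes of the pathway were taken as 43 genes in 4 lists, of which 38 could be tested. In edgeR's test 4 rose and 1 fell, where 1.24% of all genes rose and 2.71% fell, with a median log2 fold change of 0.30 beside 0.03 over all genes. All 5 were among the 16 tested coagulation factors, whose median was -0.04. Those that rose were the fibrinogen chain genes FGA, FGB and FGG and F12, the contact factor XII, and the one that fell was F9, factor IX. FGA and F12 had 10 counts or more in the grafts alone and so passed the filter only through the libraries where they are high. None of 10 other anticoagulants (median 0.53), 9 fibrinolysis genes (0.03) and 3 thrombin receptors (0.18) passed. With an unadjusted p under 0.05 there were 1633 genes higher and 1946 lower among all tested. The lists too were chosen with earlier results of these data known, so their shares are no test.

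F9 had 60 counts in the CD39/CD46/CD55/TBM graft and 171 in the CD39/CD55 graft, against 507 in the CD39/CD46/CD55/TBM untransplanted kidney and 775 in the CD39/CD55 untransplanted kidney (log2 fold change -2.29, SE 0.49, edgeR adjusted p = 0.023). Both grafts were below both untransplanted kidneys, and without the CD39/CD46/CD55/TBM graft the adjusted p was 0.0565. F12 had 31 and 37 counts in the CD39/CD46/CD55/TBM and CD39/CD55 grafts against 6 and 2 in the CD39/CD46/CD55/TBM and CD39/CD55 untransplanted kidneys (3.13, SE 0.79, adjusted p = 0.0468). This call at low counts was lost under limma voom (0.0771), without the CD39/CD46/CD55/TBM graft (0.0578) and without the CD39/CD55 untransplanted kidney (0.276). FGG, the fibrinogen gamma chain gene, had 422 and 620 counts in the CD39/CD46/CD55/TBM and CD39/CD55 grafts against 26 and 85 in the CD39/CD46/CD55/TBM and CD39/CD55 untransplanted kidneys (3.45, SE 0.55, adjusted p = 0.00549). FGB, the beta chain gene, had 765 and 1535 counts in those grafts against 117 and 122 in those untransplanted kidneys and rose by 3.44 (SE 0.46, adjusted p = 0.00234). FGA had 63 counts in the CD39/CD46/CD55/TBM graft against 1 in the untransplanted kidney of that genotype (log2 ratio 5.69, interval 3.74 to 11.59), and 52 in the CD39/CD55 graft against 0, at least 19.2-fold higher there by the floor of 3 counts in that library (adjusted p = 0.00409).

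**Figure D4:**
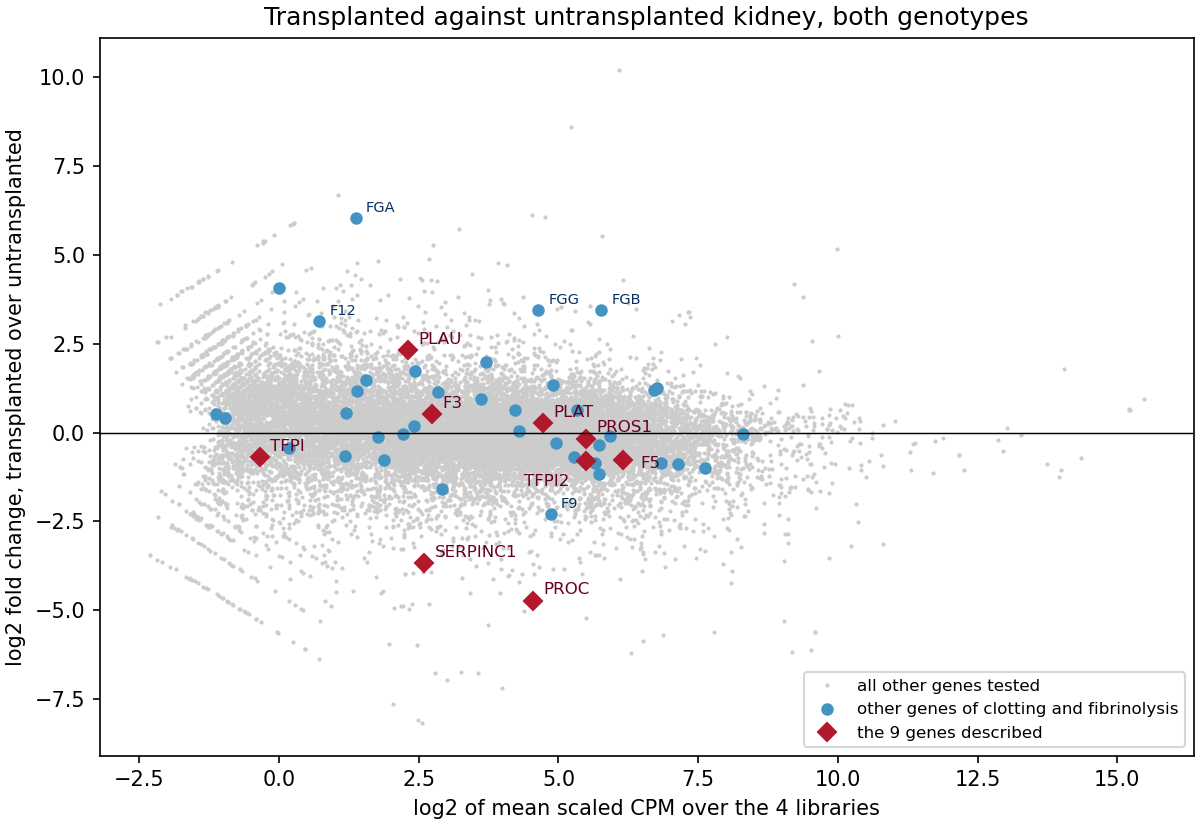
Log2 fold change, transplanted over untransplanted kidney, against the log2 of mean scaled CPM for the 18168 genes tested (grey), the other genes of clotting and fibrinolysis (blue, named where the adjusted p was under 0.05) and the 9 genes described (red diamonds). PROC at -4.73 and SERPINC1 at -3.68 lie in the lower part of the cloud and PLAU at 2.32 toward the upper edge, while the other 6 lie nearer 0.

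The remaining marker lists were read in the same test. Among 3 platelet markers tested 1, the integrin gene ITGB3, rose and none fell (173 and 58 counts in the CD39/CD46/CD55/TBM and CD39/CD55 grafts against 21 and 15 in the CD39/CD46/CD55/TBM and CD39/CD55 untransplanted kidneys), and PPBP, GP1BA, GP1BB and TREML1 were at 0 in all 4 libraries. Of 7 thick ascending limb and distal tubule markers 2 fell, of 7 podocyte markers 2 fell, of 6 collecting duct markers none passed, and of 3 red cell markers HBB fell, with none rising in these lists. Podocyte sums were 244 and 146 scaled CPM in the CD39/CD46/CD55/TBM and CD39/CD55 grafts and 460 and 435 in the CD39/CD46/CD55/TBM and CD39/CD55 untransplanted kidneys. Collecting duct sums were 243 and 126 in those grafts and 155 and 116 in those untransplanted kidneys. Their part in the rise of PLAU was not tested.

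The genotypes were then compared over both states, with state as a term, 2 libraries against 2. None of the 9 genes passed in edgeR's quasi-likelihood test, where 0.732% of all genes were called higher, 0.941% lower and 1.67% in either direction, nor in limma voom or, for the 5 genes to which it gave an adjusted p, in DESeq2. At an unadjusted p under 0.05 there were 4 of the 9, where 1323 of the 18168 genes were higher and 1531 lower. PROS1 (0.75, SE 0.32, edgeR adjusted p = 0.236) and F3 (1.04, SE 0.49, edgeR adjusted p = 0.296) were the higher ones in CD39/CD46/CD55/TBM. PROC (-0.82, SE 0.38, edgeR adjusted p = 0.292) and TFPI2 (-0.74, SE 0.35, edgeR adjusted p = 0.302) were the lower ones. PROS1 was higher in CD39/CD46/CD55/TBM in both states, at 56.7 ± 1.19 scaled CPM in CD39/CD46/CD55/TBM and 33.9 ± 6.24 in CD39/CD55 (SD, n = 2 each). F5 likewise was higher in CD39/CD46/CD55/TBM in both states (0.59, SE 0.33, edgeR adjusted p = 0.388), though with the nested lncRNA taken off the value was 0.29 (adjusted p = 0.797). Between the grafts the order then turned, with 86 counts left in CD39/CD46/CD55/TBM and 148 in CD39/CD55. Among the pathway genes SERPINF2, the plasmin inhibitor alpha-2-antiplasmin, was the one past the test and is named after its values were seen, with 162 counts in the CD39/CD46/CD55/TBM graft and 684 in the CD39/CD55 graft, and 565 and 1175 in the CD39/CD46/CD55/TBM and CD39/CD55 untransplanted kidneys (-1.37, SE 0.34, edgeR adjusted p = 0.0331). It did not pass with DESeq2's size factors (0.0565), with DESeq2's Wald test (0.0561) or without the state term (0.982).

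Between the untransplanted kidneys TFPI2 was the 1 gene of 9 called lower in CD39/CD46/CD55/TBM (log2 ratio -1.40, interval -1.57 to -1.24), against 7.88% of all genes, and none was called higher, against 8.17% (16.1% in either direction). PROC was close to the limit, with 380 counts in CD39/CD46/CD55/TBM and 822 in CD39/CD55 (-0.99, interval -1.17 to -0.82), and passed it with DESeq2's size factors. SERPINC1 (-0.17, interval -0.51 to 0.16), F3 (0.16, -0.33 to 0.65), PLAT (-0.11, -0.34 to 0.12) and PLAU (-0.21, -1.17 to 0.71) had intervals that include no difference.

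Between the grafts, F3 was the 1 gene of 9 called higher in CD39/CD46/CD55/TBM (log2 ratio 1.95, interval 1.44 to 2.51), against 11% of all genes, and none was called lower, also against 11% (22% in either direction). PROS1 was at 0.92 (0.73 to 1.11) and F5, with its nested lncRNA counted in, at 0.50 (0.33 to 0.67). For PROC (-0.50, -1.58 to 0.49), SERPINC1 (0.40, -1.04 to 1.89) and PLAU (0.21, -0.22 to 0.64) a difference between the grafts was not detectable at these counts. THBD (2.25, 1.47 to 3.17) and PLAUR (1.53, 1.07 to 2.03) were each called higher in the CD39/CD46/CD55/TBM graft.

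**Figure D5:**
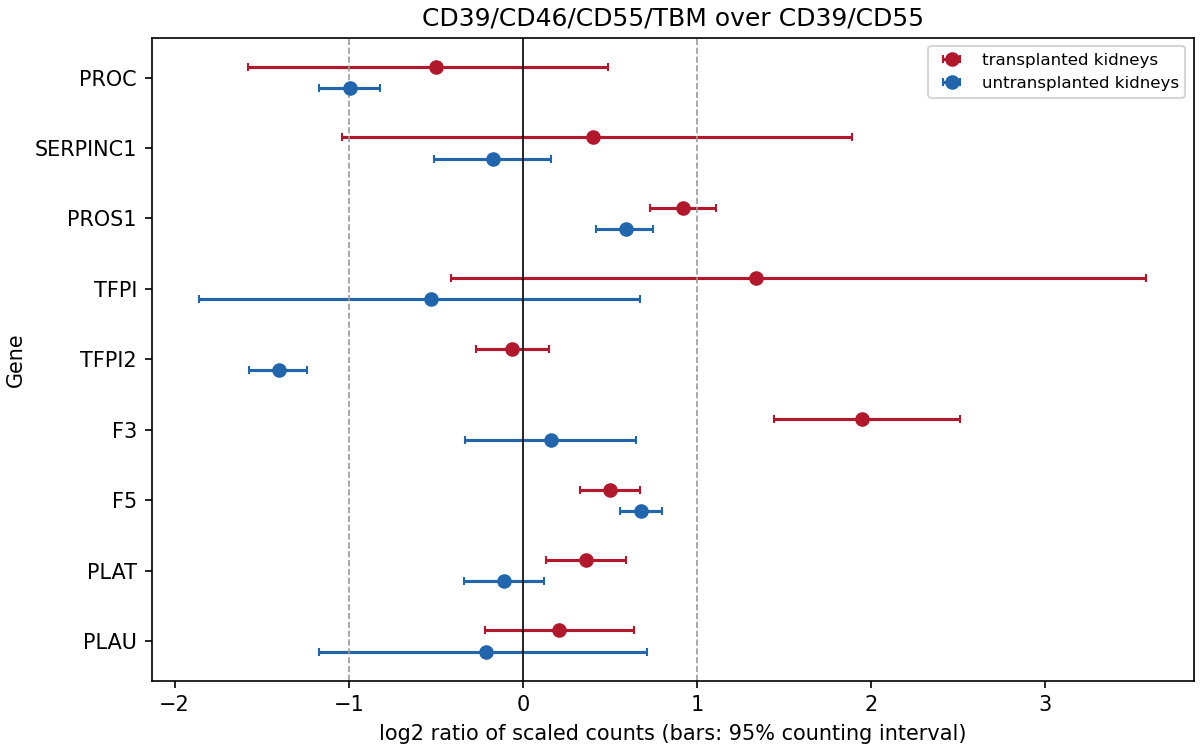
Log2 ratio of scaled counts, CD39/CD46/CD55/TBM over CD39/CD55, for each gene between transplanted kidneys (red) and between untransplanted kidneys (blue), with 95% counting intervals as bars and dashed lines at 2-fold. F3 lies beyond 2-fold between the grafts alone, at 1.95, and TFPI2 between the untransplanted kidneys alone, at -1.40.

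The change with transplantation was set against genotype as the difference of the log2 ratios, CD39/CD46/CD55/TBM minus CD39/CD55, for which 1 library per group leaves no test. Of the 9 genes 2 were called higher, against 10.4% of all genes, and none lower, against 11.5% (21.8% in either direction). These were F3, with a difference of 1.79 (95% counting interval 1.10 to 2.48), and TFPI2, with 1.34 (1.08 to 1.61). The TFPI2 value goes with its high count in the CD39/CD55 untransplanted kidney. For PROC (0.50, -0.46 to 1.45), SERPINC1 (0.58, -0.73 to 1.88) and PLAU (0.42, -0.53 to 1.38) the intervals include 0 and reach past 2-fold, so a difference of that size could not be seen or dismissed. For F5 (-0.19, -0.39 to 0.02), PROS1 (0.33, 0.09 to 0.58) and PLAT (0.47, 0.15 to 0.79) the intervals lie within 2-fold. The F5 interval holds only with the nested lncRNA LOC110260298 counted in. Without it, CD39/CD46/CD55/TBM had 86 counts left in the graft and 289 in the untransplanted kidney. CD39/CD55 had 148 and 150. TFPI had the largest difference of the 9, at 1.87, but at its low counts the interval, -0.10 to 3.84, includes 0 and it was not called. Among the partner genes THBD (3.10, 2.25 to 3.95) and PLAUR (1.46, 0.63 to 2.29) were called higher.

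The genes whose profile over the 4 libraries lay nearest to each of the 9 were found by Euclidean distance of centred log2 scaled CPM among 12320 named genes with at least 100 counts. Nearest to SERPINC1 were PNP, a purine enzyme gene (distance 0.13), SLC34A1, the phosphate transporter of the proximal tubule (0.26), and RAB3C (0.30). For PROC the nearest were farther off, with TSKU (0.81), the vitamin D binding protein gene GC (0.81) and the macrophage receptor gene CSF1R (0.85). In the CD39/CD46/CD55/TBM and CD39/CD55 grafts GC had 5 and 7 counts and CSF1R 2 and 2, under the floor of 3. The distances of GC and CSF1R thus rest on few graft counts. PLAU lay nearest to KCNE3 (0.24), TECPR1 (0.24) and C1H6orf163 (0.27). For F3 they were ADGRG6 (0.05), MEX3C (0.08) and CEMIP (0.16), and for TFPI2 they were TAOK2 (0.09), STXBP2 (0.11) and MIF (0.11). PROS1 lay nearest to ADGRG1 (0.03), BRD7 (0.10) and IGSF1 (0.10), F5 to TTC32 (0.08), SEMA3E (0.08) and YWHAE (0.09), and PLAT to PDZRN4 (0.03), FAM177A1 (0.04) and PANK2 (0.04). TFPI had too few counts to be placed.

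The genes next to PROC and SERPINC1 on the chromosome did not pass the test. DBI and MAP3K2, on either side of PROC, had log2 fold changes of -0.60 and 0.60 (edgeR adjusted p = 0.47 and 0.46). ZBTB37 and RC3H1, beside SERPINC1, were at -0.15 and 1.01 (0.862 and 0.208). Of the nearest protein-coding genes beside the 9, LOC106506035, on the side of PLAU where CAMK2G lies, was the one that passed, at -1.80 (0.0396), opposite to PLAU. Its span, 76533692 to 76536329, overlaps that of CAMK2G, which begins at 76535095, so reads in the shared stretch cannot be assigned to either.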

How the data were processed

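Counts per gene, deposited without normalization, were read for 4 pig kidney libraries. Per the labels' protocols, libraries were made with a Lexogen Quant-Seq kit from total RNA. Bowtie2, bedtools and Sscrofa11.1 stand in the submitters' processing notes. Versions, strand, multiple matches and the handling of primate reads are not stated there. Lines of a symbol were summed, and all 26466 symbols were found in the RefSeq table of Sscrofa11.1, the source of positions. Genes with at least 10 counts in 1 library were kept (18168) and scaled by TMM. Tests over 2 libraries a side used edgeR 4.0.16's quasi-likelihood test in R 4.3.3 with Benjamini-Hochberg adjustment over all genes and 0.05 as threshold. The libraries left 2 residual degrees of freedom for state and 1 for genotype. The test shares the estimate of spread across genes, so its p-values rest on other genes as well as on the gene tested. In the test of state each side holds both genotypes, so the spread includes that difference and may not be that between animals. In the test of genotype state is a term, so the spread is how far the genotype difference varied between states. That too may not be the spread between animals. Single libraries were compared by log2 ratio with a prior count of 0.5 and exact 95% intervals (Clopper-Pearson), and ratios of ratios by Wald intervals. Intervals and floors cover counting error only, since PCR reads without molecular identifiers are not independent molecules. The fits were also run on simulated counts with the same dispersion for every gene and no other difference within a side. That setting is simpler than these data, so it does not show how the tests perform here. Alternatives used DESeq2 1.42.0 and limma 3.58.1 among others. The genes and lists were chosen with earlier results of these data known. All 9 genes are described, with every other pathway gene past the threshold, THBD, PROCR and PLAUR, and the 3 nearest genes by profile were computed for each. PROZ, SERPINA10, PF4 and HBA1 were not matched by symbol. One further gene of the lists is not reported here. No sequence is printed.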

Additional observations from a re-analysis of the deposited data

Results flagged for a closer look

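The ratios of F3 had opposite signs in the genotypes. Its log2 ratio of graft to untransplanted kidney was 1.12 in CD39/CD46/CD55/TBM and -0.67 in CD39/CD55, with both counting intervals excluding 0 and a difference of 1.79. The ratio in CD39/CD55 is under 2-fold and was not called, and F3 did not pass the test of state (edgeR adjusted p = 0.668). With 1 library in each group this difference was not tested.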

How the results depend on the processing

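Of 337 values of single genes under the alternatives, 328 were counted as unchanged and 9 lost their call in a test. For a test, unchanged meant the same side of the threshold, with a missing adjusted p taken as not passing. For a ratio between libraries it meant a value inside the main counting interval, whether or not the call changed. F3, PROS1 and TFPI2, which were not called in the test of state, changed sign there when single libraries were left out. The 9 lost calls belonged to PLAU, F9, F12 and SERPINF2. PROC and SERPINC1 fell under all 10 alternatives of the test of state, each library left out included. The number of the 9 genes that rose was 0 to 1 when libraries were left out, and the number that fell was 2 in each such fit. Counts over all genes moved more. In the test of state, 543 rose and 1035 fell without a filter, 413 and 860 under DESeq2's Wald test, and 1124 and 1681 with genotype as a block, which pairs the graft and the untransplanted kidney of a genotype. With libraries left out, 186 to 1051 rose and 392 to 1349 fell, the highest without the CD39/CD55 graft. Between genotypes, 60 were higher and 89 lower in CD39/CD46/CD55/TBM with DESeq2's size factors, 86 were higher without ribosomal RNA and mitochondrial genes, 251 and 407 without a filter, 82 were higher under DESeq2's Wald test, 263 were lower under limma voom, and 0 and 0 without the state term, against 133 and 171 in edgeR's test and 1323 and 1531 at an unadjusted p under 0.05. Between the untransplanted kidneys 2 of the 9 genes, TFPI2 and PROC, were lower with DESeq2's size factors. The causes were not tested. DESeq2 gave no adjusted p for SERPINC1, F3, TFPI and PLAU between genotypes. Leaving out a library from the test of genotype left no residual degrees of freedom and was not run. The labels carry no replicate numbers, so no other pairing was run. Depth limits TFPI, PROCR and the values of PROC and SERPINC1 within grafts.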

Other observations

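ADAMTS13, the protease that trims von Willebrand factor, had 253 counts in the CD39/CD46/CD55/TBM graft and 906 in the CD39/CD55 graft, and 303 and 539 in the CD39/CD46/CD55/TBM and CD39/CD55 untransplanted kidneys. CACFD1, which lies inside its span, had 252 and 904 counts in those grafts and 302 and 538 in those untransplanted kidneys. The difference is 1 or 2 counts in each library, so with reads counted for every span they fall in, nearly all counts of ADAMTS13 would also be counts of CACFD1. This pair was singled out after its values were seen.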
